A study of Mus musculus with 4 samples.

Results

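The 43 genes described here encode the actin filament and the proteins that build, cut, cross-link and anchor it beneath the plasma membrane. They were listed by gene symbol for their known roles, with earlier results of these data known, and each of the 43 symbols matched 1 row among the 32544 genes of the deposited tables. By role they comprise 2 cytoplasmic actins, 5 monomer-binding and turnover proteins, 7 subunits of the Arp2/3 complex, 5 nucleation and elongation factors, 6 GTPases and LIM kinases, 5 capping and severing proteins, 6 crosslinkers and bundlers, 3 tropomyosins, 2 membrane linkers and 2 transcriptional regulators. Their UMI counts were followed across bone marrow cell classes, megakaryocytes and neutrophil stages first, and then between genotypes.

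The study profiled nucleated bone marrow cells, sorted by flow cytometry, with droplet single-cell RNA sequencing of transcript 3′ ends (10x Genomics, kit version 3.1). There were 2 libraries from mice labelled as YAP1 heterozygotes and 2 from wild type (WT) mice; all mice were 10 weeks old. YAP1 is a transcriptional coactivator that Hippo signalling keeps in check, and the series title places it with MYH9, the heavy chain of a non-muscle myosin, in thrombopoiesis. No source used here gives the sort gates, the kind of Yap1 allele or any Cre driver. Because the 3′ counts cannot separate alleles and Yap1 itself had 0 and 6 UMIs in YAP1 heterozygote cells and 6 and 7 in WT cells, its level checks no genotype. Labels do not say that replicates are separate animals, but sex-linked transcripts differed within each group (Ddx3y marked replicate 1 and Xist replicate 2 in both), so the spread within a group also holds a difference of sex.

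Actin monomers join into filaments that branch where the Arp2/3 complex binds and grow straight where formins and Ena/VASP proteins hold the growing end, while cofilin, gelsolin and capping proteins limit their length. In megakaryocytes this network, together with non-muscle myosin and the demarcation membranes, shapes the proplatelets from which platelets are shed. Neutrophils rely on the same parts for crawling, squeezing through vessel walls and phagocytosis. Many of the genes exist as paralogs with overlapping products, so that a cell type can be described by which paralog it uses.

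The libraries held 112806900 to 119855112 UMIs in 11346 to 14352 barcodes, and 10545 to 13170 cells per library were kept, with a median of 5515 to 6735 UMIs. Pairs of libraries shared 27 to 62 barcodes, at most 0.511% of the smaller library. Cells were clustered without the 43 genes, and clusters were named by fixed markers; every class name below stands for cells that resemble that type. The analysis covers the 19 classes with at least 20 cells in each library. The megakaryocyte class had 5 of its fixed markers among its 10 leading genes, Pf4, Ppbp, Itga2b, Vwf and Treml1, and held 73 and 110 cells in YAP1 heterozygote and 118 and 121 cells in WT libraries, with a class median of 18798 UMIs. One library stood apart: 60.5% of the mature neutrophils of WT replicate 1 lay in a cluster led by Ccrl2, Acod1 and Cxcl2, against 2.21 and 2.30% in YAP1 heterozygote replicates 1 and 2 and 8.58% in WT replicate 2. For mature neutrophils the contrast counts, the median genotype difference and the range over the named genes are also given without that library. Levels, paralog shares and stage courses of mature neutrophils include it.

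Together the 43 genes took a share of the transcriptome that differed several-fold between classes. Levels are CPM, the UMI counts of a class in a library scaled to 1000000 UMIs, and because 1 UMI at the 3′ end stands for 1 captured transcript, levels of different genes can be set side by side per molecule without a length term. The summed share was 6.13 ± 0.182% in mature neutrophils and 6.15 ± 0.182% in maturing ones (SD, n = 4 libraries). It was 2.65 ± 0.217% in megakaryocytes and 1.68 ± 0.0166% in hematopoietic stem and progenitor cells (HSPC), and it was lowest in erythroid progenitors (0.872 ± 0.0476%) and plasma cells (0.680 ± 0.180%). By gene, 21 of the 43 had their highest mean level in immature, maturing or mature neutrophils and 7 in nonclassical monocytes. Megakaryocytes were highest for 3, Tpm1, Actn4 and Srf; the 4 megakaryocyte libraries lay above those of the next class for Tpm1 and Srf, while for Actn4 they overlapped with dividing neutrophil precursors. Plasma cells, the antibody-secreting class in which immunoglobulin transcripts fill much of the library, were lowest for 27. Highest and lowest classes were not counted over all genes, so these counts cannot be called particular to the actin genes.

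Pairs of classes were compared within each library, and a gene was counted as different where it was at least 2-fold higher, or at least 2-fold lower, in all 4 libraries. Genes entered where the mean reached 5 CPM in either class. Since the classes come from clustering, these are descriptions and carry no test. Of 43 genes measured in megakaryocytes against HSPC, 2 were higher and 2 lower, beside 3.51% of all 10196 genes higher and 6.19% lower. Tmsb4x and Tpm1 were the higher ones, Lcp1 and Evl the lower ones, and the median log2 ratio over the 43 was 0.14, against -0.00075 over all genes. Of 40 genes in mature neutrophils against dividing neutrophil precursors, 6 were higher and 1 was lower, beside 18.7% and 32.6% of 8204 genes, with medians of 0.29 and -0.39; without WT replicate 2, 2 were lower. Of 42 genes in megakaryocytes against mature neutrophils, 4 were higher and 20 lower, beside 54.6% higher and 14.9% lower of 10148 genes, and the medians were -1.03 for the actin genes and 1.71 for all genes. Without WT replicate 1 the counts that involve mature neutrophils were the same.

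These contrasts depend on what else fills a library. A set of 18 abundant genes outside the 43, among them S100a8, S100a9 and immunoglobulin chains, took 29.1% of the UMIs of mature neutrophils, 42.3% of those of dividing precursors, 50.0% of those of immature neutrophils and 2.10% of those of megakaryocytes. Leaving them out of the totals moved the median of all genes by -0.38 in mature neutrophils against dividing precursors, by -0.50 in megakaryocytes against mature neutrophils and by -0.0077 in megakaryocytes against HSPC. The counts became 3 higher and 4 lower in mature neutrophils against dividing precursors, and 9 of the 43 genes turned the sign of their mean ratio. Higher in both scalings were Tpm4, Lcp1 and Diaph1. In megakaryocytes against mature neutrophils the counts were 4 higher and 24 lower, and Cfl1, Capza2 and Tpm3 turned sign. Without the same genes the summed share of the 43 was 11.0 ± 0.303% in maturing, 10.4 ± 0.274% in immature and 8.65 ± 0.297% in mature neutrophils, 2.71 ± 0.218% in megakaryocytes and 1.73 ± 0.0189% in HSPC. It was 1.62 ± 0.297% in plasma cells and lowest, at 0.883 ± 0.0487%, in erythroid progenitors, so that the last 2 classes changed places and immature neutrophils passed mature ones. By gene, 30 were then highest in the last 3 neutrophil stages, 2 in nonclassical monocytes and 2, Tpm1 and Srf, in megakaryocytes, while Actn4 was highest in dividing neutrophil precursors. Erythroid progenitors were lowest for 33 and plasma cells for 3. These counts too have no counterpart over all genes. The paralog shares below are ratios within a family and do not depend on the total.

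**Figure D1:**
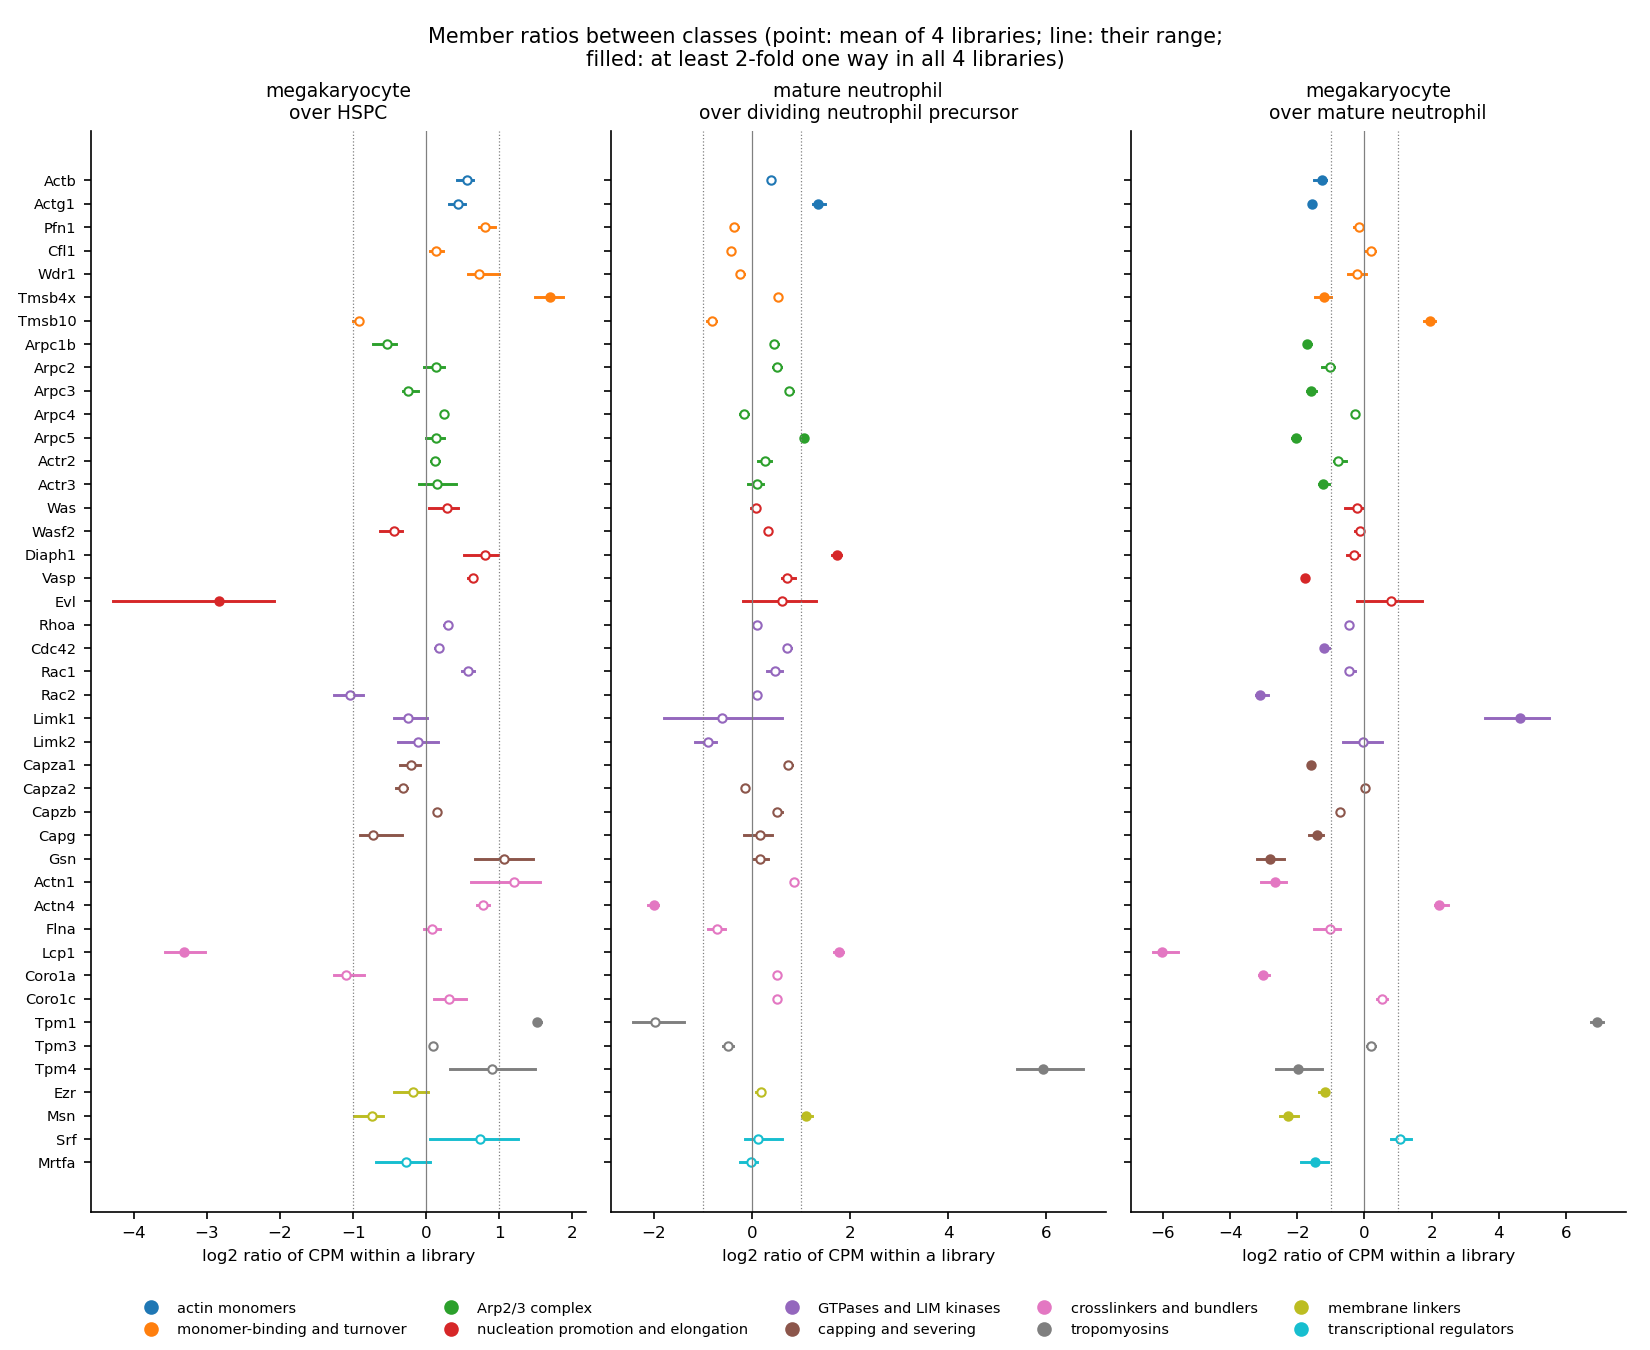
Log2 ratios of CPM within a library for the 43 genes, coloured by role, in the 3 pairs of classes; points are means of 4 libraries, lines their range, filled points genes at least 2-fold one way in all 4, and dotted lines mark 2-fold. Lcp1 lies farthest left and Tpm1 farthest right in megakaryocytes over mature neutrophils (-6.02 and 6.91), and Tpm4 stands alone at 5.93 in mature over dividing neutrophils.

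The actins themselves were used in nearly the same mixture in megakaryocytes and mature neutrophils. Actb and Actg1 encode β- and γ-actin, proteins that differ at a few residues near the start, which is why the first 60 coding bases are shown (GRCm38, sense strand of the APPRIS principal transcripts; genes at chr5:142903115-142906754, minus strand, and chr11:120345690-120348542, minus strand; capitals mark the 9 positions at which the paralogs differ).
Actb: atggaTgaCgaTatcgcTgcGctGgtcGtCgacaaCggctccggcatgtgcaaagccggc
Actg1: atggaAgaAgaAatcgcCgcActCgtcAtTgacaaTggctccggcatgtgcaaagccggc
Over the 1128 coding bases of each, 1000 were identical (88.7%). Actb made up 78.6 ± 0.625% of actin UMIs in megakaryocytes, 74.8 ± 2.22% in mature neutrophils and 89.3 ± 1.44% in erythroid progenitors, the class with the highest Actb share. Levels per molecule differed more than the mixture did. Actb was at 4990.4 and 5685 CPM in YAP1 heterozygote and 5548 and 6051 CPM in WT megakaryocytes, and at 14120.0 and 12688 CPM in YAP1 heterozygote and 13557 and 13456 CPM in WT mature neutrophils. Actg1 had 1432 and 1521 CPM in YAP1 heterozygote and 1463 and 1655 CPM in WT megakaryocytes. Its level was 4248 and 4642 CPM in YAP1 heterozygote and 4145 and 5077 CPM in WT mature neutrophils, and 1792 and 1807 CPM in YAP1 heterozygote and 1663 and 1801 CPM in WT dividing precursors. Each mature neutrophil library was above each megakaryocyte library for both actins, with log2 ratios of megakaryocyte over mature neutrophil of -1.28 ± 0.16 for Actb and -1.57 ± 0.053 for Actg1 (SD, n = 4). Actg1 was also 1.35 ± 0.11 higher on the log2 scale in mature than in dividing neutrophils, a gap that fell short of 2-fold in at least 1 library without the 18 abundant genes.

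Tmsb4x and Tmsb10 encode the β-thymosins 4 and 10, small proteins that hold actin monomers in reserve. Their whole coding sequences are shown because the pair had a mixture that shifted widely between classes (GRCm38, sense strand; genes at chrX:167207093-167209315, minus strand, and chr6:72957347-72958748, minus strand; capitals mark the 40 of 135 bases that differ, 70.4% identity).
Tmsb4x: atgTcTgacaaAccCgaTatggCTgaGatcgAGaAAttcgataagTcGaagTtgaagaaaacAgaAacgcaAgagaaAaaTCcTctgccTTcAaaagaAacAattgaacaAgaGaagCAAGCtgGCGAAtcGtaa
Tmsb10: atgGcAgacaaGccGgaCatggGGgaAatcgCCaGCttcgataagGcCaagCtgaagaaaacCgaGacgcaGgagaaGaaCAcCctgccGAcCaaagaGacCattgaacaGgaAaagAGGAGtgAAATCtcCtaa
Tmsb4x was the most abundant of the 43 genes in both classes. It stood at 9642 and 11954 CPM in YAP1 heterozygote and 9371 and 12079.6 CPM in WT megakaryocytes, against 3449 and 3277 CPM in YAP1 heterozygote and 3250.4 and 3298 CPM in WT HSPC, a log2 ratio of 1.69 ± 0.21 with no overlap of the classes. In mature neutrophils it was higher again, at 26533 and 24283 CPM in YAP1 heterozygote and 24222 and 24171 CPM in WT. Tmsb10 ran the other way, with 374 and 441 CPM in YAP1 heterozygote and 407 and 356 CPM in WT megakaryocytes, against 685 and 828 CPM in YAP1 heterozygote and 812 and 656 CPM in WT HSPC. Mature neutrophils were lower still, at 101 and 103 CPM in YAP1 heterozygote and 120.1 and 89.0 CPM in WT, and no library of 1 class overlapped with those of another. Its log2 ratio was -0.91 ± 0.057 in megakaryocytes over HSPC and 1.94 ± 0.15 in megakaryocytes over mature neutrophils, and it was -0.81 ± 0.074 in mature over dividing neutrophils (173 and 184 CPM in YAP1 heterozygote and 200.1 and 167 CPM in WT dividing precursors). As a share of β-thymosin UMIs, Tmsb10 made up 3.58 ± 0.541% in megakaryocytes, 18.3 ± 2.03% in HSPC, 32.4 ± 1.62% in B cell precursors and 0.415 ± 0.0572% in mature neutrophils.

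Profilin (Pfn1), which feeds monomers to growing filaments, cofilin (Cfl1), which severs old filaments, and Wdr1, its helper in disassembly, were less than 2-fold apart between the lineages. Pfn1 was at 1129.8 ± 59.0 CPM in megakaryocytes and 1269 ± 67.5 CPM in mature neutrophils, and Cfl1 at 912 ± 51.8 CPM in megakaryocytes and 793 ± 45.2 CPM in mature neutrophils (SD, n = 4 each). Wdr1 had 135 ± 14.2 CPM in megakaryocytes and 159.5 ± 19.8 CPM in mature neutrophils. All 3 were below 2-fold in every one of the 3 class pairs, with mean log2 ratios between -0.42 and 0.80.

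The Arp2/3 complex, which starts branches on existing filaments, took 0.213 ± 0.00938% of megakaryocyte UMIs and 0.531 ± 0.0187% of mature neutrophil UMIs. Its 7 genes did not keep one ratio to each other. In megakaryocytes over mature neutrophils the mean log2 ratios ran between -2.05 for Arpc5 and -0.27 for Arpc4, and Arpc1b, Arpc3, Arpc5 and Actr3 were at least 2-fold lower in all 4 libraries. Arpc5, a small subunit of the complex, was the 1 that also differed along the neutrophil stages by that rule. It was at 919 and 856 CPM in YAP1 heterozygote and 921 and 888 CPM in WT mature neutrophils, and at 439 and 404 CPM in YAP1 heterozygote and 451 and 413 CPM in WT dividing precursors, a log2 ratio of 1.07 ± 0.031 that did not pass without the 18 abundant genes. Against HSPC, the megakaryocyte ratios of the 7 subunits lay between -0.54 for Arpc1b and 0.24 for Arpc4. Actr2 and Actr3, the actin-related subunits that mimic the first monomers of a branch, had 198 ± 19.8 CPM and 288 ± 25.4 CPM in megakaryocytes, against 339.6 ± 29.8 CPM and 685 ± 68.6 CPM in mature neutrophils.

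Among the factors that start or lengthen filaments, the formin Diaph1 had its highest mean level in mature neutrophils (in maturing ones without the 18 abundant genes), and megakaryocytes held rank 3 of 19 classes. It had 267 and 312 CPM in YAP1 heterozygote and 337 and 351 CPM in WT megakaryocytes, against 187 and 174 CPM in YAP1 heterozygote and 181 and 177 CPM in WT HSPC. Mature neutrophils had 387 and 396 CPM in YAP1 heterozygote and 374 and 424 CPM in WT, above every megakaryocyte library. Dividing precursors lay below all of these, at 120.3 and 112 CPM in YAP1 heterozygote and 121 and 122 CPM in WT, and the log2 ratio of mature to dividing neutrophils was 1.73 ± 0.09. Vasp and Evl, of the Ena/VASP family that holds growing filament ends, were used unequally. Evl was close to absent from both: it had 1 and 6 UMIs in YAP1 heterozygote and 9 and 9 UMIs in WT megakaryocytes, and 5 and 11 UMIs in YAP1 heterozygote and 12 and 5 UMIs in WT mature neutrophils. HSPC held 69 and 64 UMIs in YAP1 heterozygote and 103 and 55 UMIs in WT, and the level in megakaryocytes was lower in all 4 libraries, at 0.639 and 2.79 CPM in YAP1 heterozygote and 4.10 and 3.32 CPM in WT, against 18.5 and 20.6 CPM in YAP1 heterozygote and 20.1 and 14.7 CPM in WT HSPC. The pooled ratio of megakaryocytes to HSPC was 0.156 (exact 95% interval 0.0996 to 0.236, counting error only). Vasp made up 98.0 ± 1.06% of the pair in megakaryocytes and 99.7 ± 0.120% in mature neutrophils, against 45.5 ± 2.17% in T cells, the class with the highest Evl share.

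Was and Wasf2 encode WASP, mutated in Wiskott-Aldrich syndrome with its small platelets, and WAVE2, which both switch on Arp2/3. Wasf2 gave the larger part of the pair in every class, between 59.6 ± 0.439% in dividing neutrophil precursors and 83.0 ± 1.77% in plasmacytoid dendritic cells. In megakaryocytes Was made up 35.0 ± 3.63% of the pair and in mature neutrophils 36.4 ± 1.43%, with the libraries overlapping. The level of Was was 66.2 ± 7.62 CPM in megakaryocytes and 77.8 ± 4.41 CPM in mature neutrophils, and that of Wasf2 was 123 ± 12.5 CPM in megakaryocytes and 136 ± 5.86 CPM in mature neutrophils.

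Rac1 and Rac2, GTPases that are both activators of WAVE and branching, were used in opposite proportion in the lineages. Rac1 made up 65.9 and 67.2% in YAP1 heterozygote and 63.4 and 67.7% in WT megakaryocytes, the highest share of any class, against 23.6 and 24.6% in YAP1 heterozygote and 22.3 and 23.5% in WT mature neutrophils. No library of either class came near the other. In HSPC the Rac1 share was 38.9 ± 2.07%, in erythroid progenitors 61.9 ± 1.91% and in immature neutrophils 13.7 ± 0.539%, the lowest. The larger difference in level was in Rac2, the hematopoietic Rac, which had 129 and 143 CPM in YAP1 heterozygote and 155 and 137 CPM in WT megakaryocytes, against 272 and 279 CPM in YAP1 heterozygote and 284 and 328 CPM in WT HSPC. Mature neutrophils had 1194 and 1286 CPM in YAP1 heterozygote and 1127 and 1277 CPM in WT, several-fold above both. Its log2 ratio was -1.04 ± 0.17 in megakaryocytes over HSPC and -3.11 ± 0.17 over mature neutrophils. Rac1 differed less, with 249.7 and 294 CPM in YAP1 heterozygote and 269 and 287 CPM in WT megakaryocytes, against 369 and 420.1 CPM in YAP1 heterozygote and 324 and 392 CPM in WT mature neutrophils, all of them higher. Rhoa, which drives contraction through formins and myosin, had 401 ± 26.5 CPM in megakaryocytes and 552 ± 24.7 CPM in mature neutrophils. Cdc42, the polarity GTPase that activates WASP, had 391 ± 19.2 CPM in megakaryocytes and 895 ± 32.3 CPM in mature neutrophils, and it was at least 2-fold lower in the megakaryocytes of all 4 libraries.

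The LIM kinases inactivate cofilin by phosphorylation. Limk1 was detected in megakaryocytes at 13.4 and 10.7 CPM in YAP1 heterozygote and 10.5 and 10.7 CPM in WT and nearly not at all in mature neutrophils, where it had 1 and 3 UMIs in YAP1 heterozygote and 5 and 1 UMIs in WT; the pooled ratio was 24.5 (exact 95% interval 12.7 to 52.7, counting error only). It accounted for 50.9 ± 6.43% of LIM kinase UMIs in megakaryocytes, 53.3 ± 7.51% in HSPC and 3.49 ± 1.99% in mature neutrophils. Limk2 was at 10.9 and 7.91 CPM in YAP1 heterozygote and 13.2 and 12.2 CPM in WT megakaryocytes, and at 11.8 and 12.6 CPM in YAP1 heterozygote and 12.6 and 8.57 CPM in WT mature neutrophils, so the classes overlapped. Dividing precursors had 21.6 and 22.8 CPM in YAP1 heterozygote and 20.8 and 19.4 CPM in WT, each above every mature library. Its log2 ratio of mature to dividing neutrophils was -0.90 ± 0.19, past 2-fold in all 4 libraries only without the 18 abundant genes.

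Capping and severing proteins stop filament growth and shorten filaments. The α subunits of capping protein were used in opposite order: Capza1 made up 34.6 ± 2.10% of the pair in megakaryocytes and 61.6 ± 1.59% in mature neutrophils, and the 4 libraries of a class did not overlap with those of the other. The libraries overlapped for Capza2 (178 ± 10.4 CPM in megakaryocytes and 177 ± 4.24 CPM in mature neutrophils), while Capza1 had 94.0 ± 4.56 CPM in megakaryocytes and 284 ± 13.1 CPM in mature neutrophils. Capzb, the β subunit, had 240.2 ± 8.70 CPM in megakaryocytes and 395 ± 15.3 CPM in mature neutrophils. Gelsolin (Gsn), a calcium-activated severing protein also known from plasma, was at 28.7 and 29.3 CPM in YAP1 heterozygote and 33.3 and 42.0 CPM in WT megakaryocytes, against 18.2 and 10.6 CPM in YAP1 heterozygote and 15.1 and 21.4 CPM in WT HSPC. Mature neutrophils had 268 and 229 CPM in YAP1 heterozygote and 220.1 and 221 CPM in WT. Megakaryocytes lay above HSPC (1.06 ± 0.33 on the log2 scale) and far below mature neutrophils (-2.82 ± 0.35). Its relative Capg, which caps without severing, peaked at 321 ± 11.5 CPM in maturing neutrophils and had 33.8 ± 2.88 CPM in megakaryocytes and 90.0 ± 10.7 CPM in mature neutrophils.

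The lowest ratio of megakaryocytes to mature neutrophils was that of a bundling protein. L-plastin (Lcp1), the bundler of white blood cells, had 24.9 and 28.4 CPM in YAP1 heterozygote and 41.4 and 26.5 CPM in WT megakaryocytes, against 300.0 and 281 CPM in YAP1 heterozygote and 339 and 279 CPM in WT HSPC. Mature neutrophils had 1963 and 1928 CPM in YAP1 heterozygote and 1969 and 1916 CPM in WT, and the 3 classes did not overlap. Its log2 ratio was -3.32 ± 0.23 in megakaryocytes over HSPC and -6.02 ± 0.32 over mature neutrophils, and it was 1.78 ± 0.078 in mature over dividing neutrophils (568 and 531 CPM in YAP1 heterozygote and 617 and 550.3 CPM in WT dividing precursors). Since neutrophil transcripts occur in every class of these libraries, the level in megakaryocytes is given beside the summed share of 7 neutrophil genes there. These were S100a8, S100a9, Ngp, Camp, Ltf, Lcn2 and Retnlg, all 7 detected. Their share was 0.361 and 0.846% in YAP1 heterozygote and 1.5 and 0.353% in WT megakaryocytes. WT replicate 1 was highest in both, and the part of such RNA in the Lcp1 level was not tested.

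The α-actinins tie filaments together and to adhesion sites, and the lineages used opposite members. Actn4 made up 76.3 ± 4.11% of the pair in megakaryocytes and 9.87 ± 1.09% in mature neutrophils. Actn1, in which variants cause inherited large-platelet thrombocytopenia in people, was at 38.3 and 47.5 CPM in YAP1 heterozygote and 51.0 and 60.8 CPM in WT megakaryocytes, against 25.2 and 18.3 CPM in YAP1 heterozygote and 21.3 and 20.6 CPM in WT HSPC. Mature neutrophils had 329 and 271 CPM in YAP1 heterozygote and 342 and 309 CPM in WT, well above both. Actn4 was at 155 and 150.3 CPM in YAP1 heterozygote and 184 and 146 CPM in WT megakaryocytes, against 36.2 and 34.6 CPM in YAP1 heterozygote and 32.4 and 32.9 CPM in WT mature neutrophils. Dividing precursors had 147 and 130.4 CPM in YAP1 heterozygote and 141 and 126 CPM in WT, overlapping with megakaryocytes. Along the neutrophil line the pair crossed before the dividing stage, with Actn1 at 70.7 and Actn4 at 132 CPM in granulocyte-monocyte progenitors or promyelocytes and Actn1 at 172 and Actn4 at 136 CPM in dividing precursors. The gap was widest in maturing neutrophils, with Actn1 at 449 and Actn4 at 33.4 CPM, and smaller again in mature ones, at 313 and 34.0 CPM. The log2 ratio of mature to dividing neutrophils was -2.0 ± 0.094 for Actn4 and 0.86 ± 0.04 for Actn1, and the Actn4 share was 44.2 ± 1.25% in dividing precursors. In megakaryocytes over HSPC the log2 ratio of Actn1 was 1.20 ± 0.41, which passed 2-fold in some libraries but not in all.

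Coronins bind filaments and promote their turnover with Arp2/3 and cofilin. Coro1a, the leukocyte coronin, had 178 and 199 CPM in YAP1 heterozygote and 213 and 189.9 CPM in WT megakaryocytes, against 403 and 433 CPM in YAP1 heterozygote and 385 and 454 CPM in WT HSPC. Mature neutrophils had 1559 and 1584 CPM in YAP1 heterozygote and 1537 and 1584 CPM in WT. Each class stood apart from the others, with log2 ratios of -1.10 ± 0.18 in megakaryocytes over HSPC and -3.01 ± 0.12 over mature neutrophils. For the broadly expressed Coro1c, megakaryocytes held rank 3 of 19 classes by mean level (63.8 ± 4.23 CPM). Coro1c made up 24.7 ± 1.95% of coronin UMIs in megakaryocytes, against 2.79 ± 0.249% in mature neutrophils and 43.2 ± 5.35% in erythroid progenitors. Filamin A (Flna), which links filaments to integrins and to the von Willebrand factor receptor of platelets, was at 97.1 and 131 CPM in YAP1 heterozygote and 132 and 110.2 CPM in WT megakaryocytes, against 276 and 218 CPM in YAP1 heterozygote and 228 and 229 CPM in WT mature neutrophils, each of them higher. It peaked earlier in the neutrophil line, at 519 ± 28.2 CPM in immature neutrophils, and was -0.72 ± 0.15 on the log2 scale in mature over dividing neutrophils (402 and 377 CPM in YAP1 heterozygote and 422 and 358 CPM in WT dividing precursors).

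The tropomyosins, which run along filaments and decide which proteins can bind them, differed widely between the classes. Tpm1 was highest in megakaryocytes, at 125 and 137 CPM in YAP1 heterozygote and 148 and 170.3 CPM in WT, against 44.7 and 49.5 CPM in YAP1 heterozygote and 50.9 and 57.2 CPM in WT HSPC, a log2 ratio of 1.52 ± 0.049. Mature neutrophils held 4 and 6 UMIs in YAP1 heterozygote and 8 and 7 UMIs in WT, and the pooled ratio of megakaryocytes to mature neutrophils was 130.4 (exact 95% interval 87.9 to 202, counting error only). Of the other classes erythroid progenitors came next, with 94.5 ± 2.79 CPM, and no library of theirs reached the lowest megakaryocyte library. Tpm4 ran in the opposite direction along the neutrophil line. It had 405 and 309 CPM in YAP1 heterozygote and 339 and 362 CPM in WT mature neutrophils, against 3.72 and 6.87 CPM in YAP1 heterozygote and 7.99 and 5.25 CPM in WT dividing precursors, a log2 ratio of 5.93 ± 0.63. In megakaryocytes it was at 65.1 and 127 CPM in YAP1 heterozygote and 56.0 and 141 CPM in WT, against 42.8 and 56.9 CPM in YAP1 heterozygote and 44.6 and 50.2 CPM in WT HSPC, and both replicate 2 megakaryocyte libraries were higher than both replicate 1 libraries.

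Within the family, Tpm3 supplied most UMIs in both lineages, 67.1 ± 5.22% in megakaryocytes and 54.8 ± 3.31% in mature neutrophils, and 98.2 ± 0.417% in dividing precursors. Tpm1 came next in megakaryocytes (19.8 ± 1.44%) and Tpm4 after it (13.1 ± 4.97%). In mature neutrophils Tpm4 reached 45.1 ± 3.33% and Tpm1 0.144 ± 0.0307%, while erythroid progenitors had 42.6 ± 2.08% Tpm1 and 2.08 ± 0.416% Tpm4. A gene-level count cannot separate the splice isoforms of a tropomyosin gene. Tpm3 is also uncertain because 57.4% of the 50-base words in its last 500 transcript bases occur in Tpm3-rs7 as well; the same share was 61.9% for Tmsb10, 50.6% for Capza1, 41.5% for Actr3, 11.5% for Was and 9.31% for Actb, and 0 for the other 37.

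**Figure D2:**
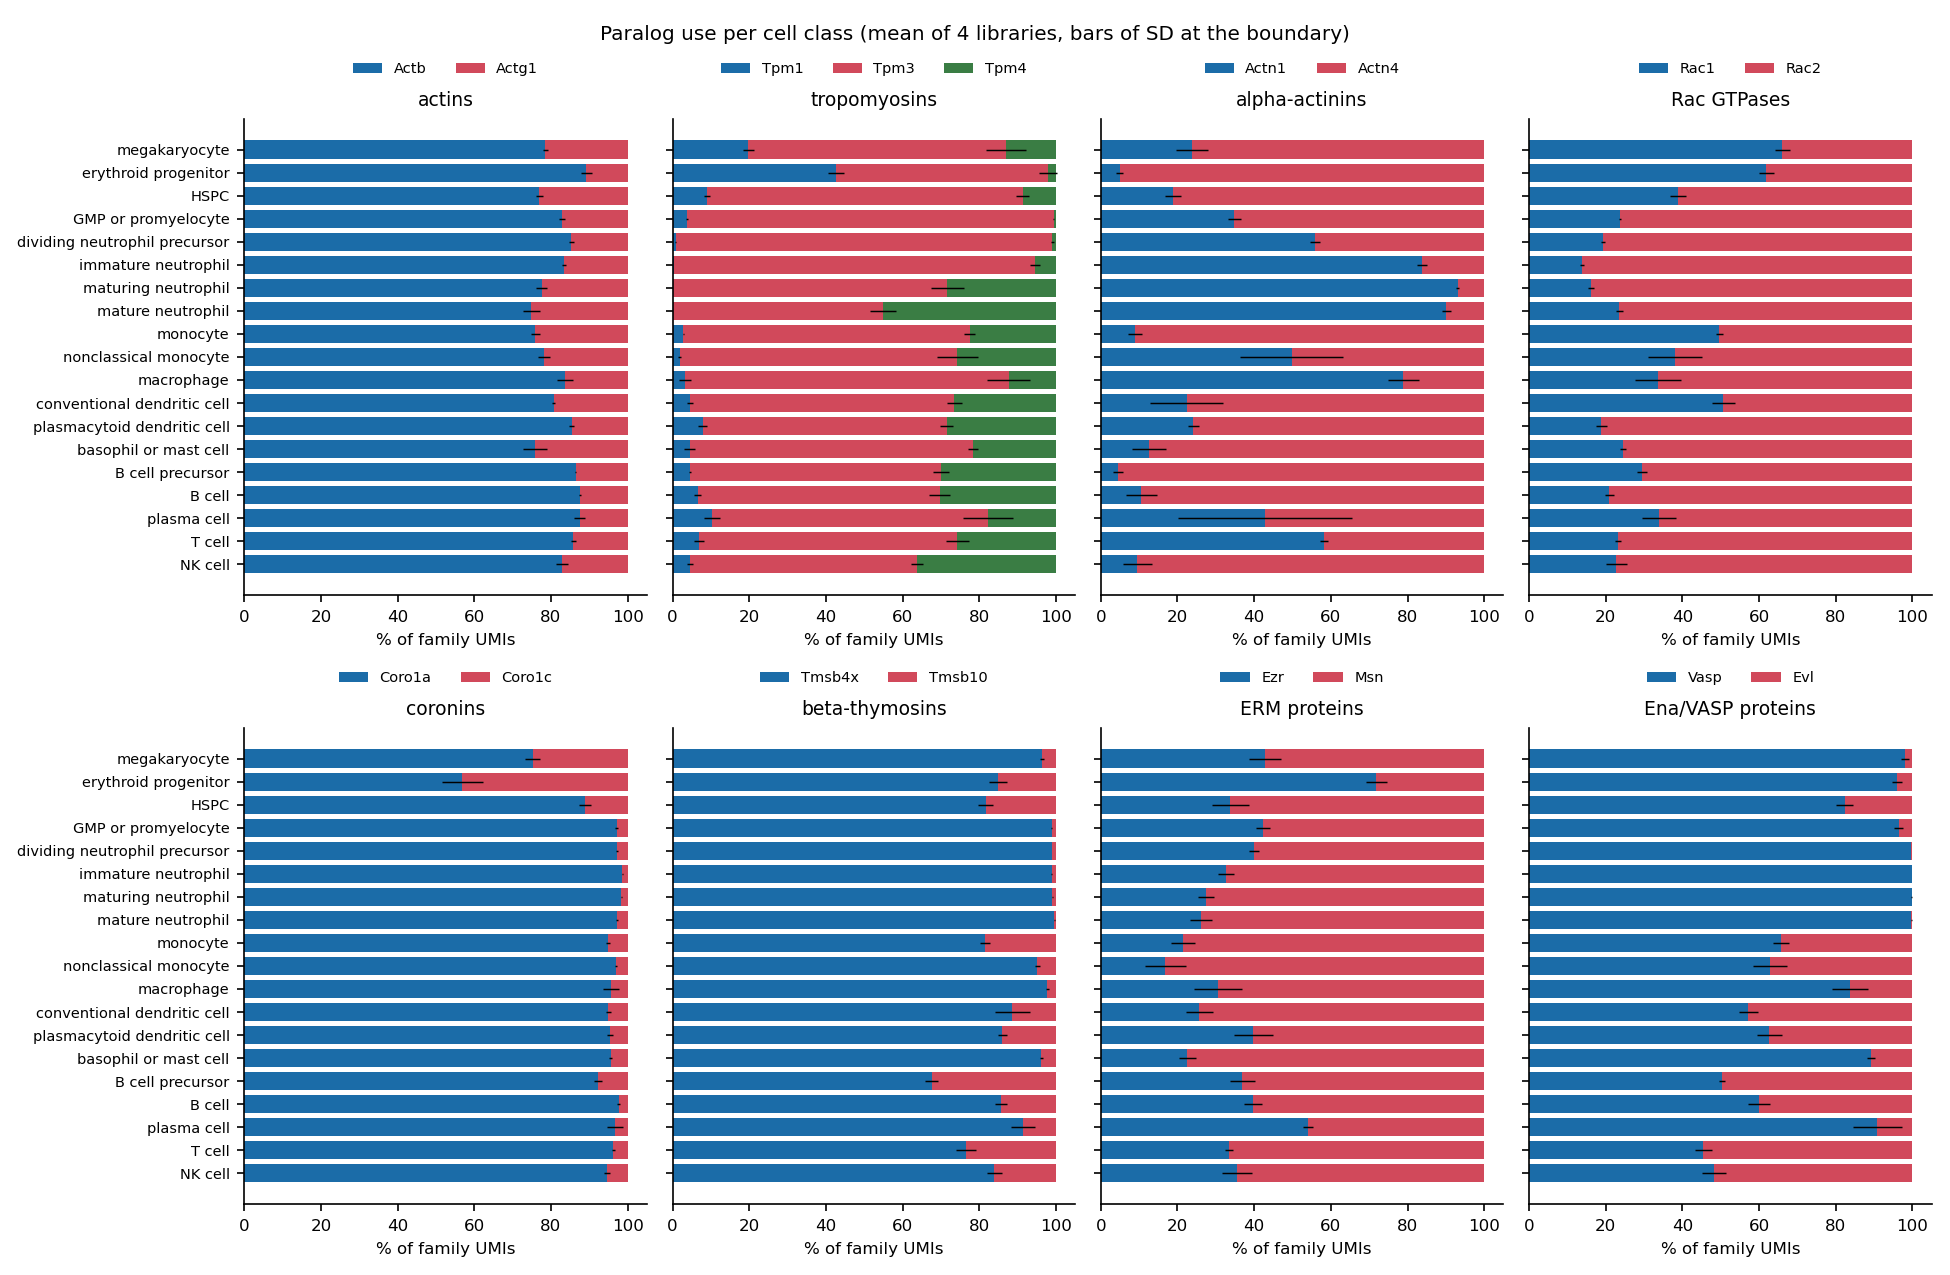
Share of each paralog in the UMIs of its family (x axis, %) in 19 cell classes (rows), for 8 families; colours are genes, bars are means of 4 libraries and black lines the SD at a boundary. The Tpm1 part is visible in megakaryocytes (19.8%) and erythroid progenitors (42.6%), the Tpm4 part in mature neutrophils (45.1%), and the Rac1 part is widest in megakaryocytes (66.1%).

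Ezrin (Ezr) and moesin (Msn) fasten the cortex to membrane proteins. Msn made up 57.2 ± 4.21% of the pair in megakaryocytes, 73.9 ± 2.81% in mature neutrophils and 28.1 ± 2.75% in erythroid progenitors. Msn was at 76.0 and 102 CPM in YAP1 heterozygote and 103 and 80.4 CPM in WT megakaryocytes, against 437 and 466 CPM in YAP1 heterozygote and 410.1 and 417 CPM in WT mature neutrophils. Dividing precursors, with 206 and 198 CPM in YAP1 heterozygote and 202 and 198 CPM in WT, lay between them, and its log2 ratio of mature to dividing neutrophils was 1.10 ± 0.092. Ezr was at 67.1 ± 7.51 CPM in megakaryocytes and 152 ± 13.8 CPM in mature neutrophils, and both linkers were at least 2-fold lower in the megakaryocytes of all 4 libraries.

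Srf encodes serum response factor, and Mrtfa the coactivator that free actin monomers hold out of the nucleus; together they are known to drive many cytoskeletal genes through CArG boxes. Srf was higher in megakaryocytes than in any other class, at 16.0 and 14.9 CPM in YAP1 heterozygote and 22.3 and 19.9 CPM in WT, against 9.64 and 14.5 CPM in YAP1 heterozygote and 11.9 and 8.28 CPM in WT HSPC. Mature neutrophils had 8.33 and 8.64 CPM in YAP1 heterozygote and 8.48 and 9.34 CPM in WT, and the log2 ratio of megakaryocytes to them was 1.06 ± 0.26. HSPC and mature neutrophils overlapped, and megakaryocytes lay above both. Mrtfa ran lower in megakaryocytes, at 18.5 ± 2.25 CPM, than in mature neutrophils, at 52.4 ± 7.09 CPM. The boxes found beside the starts of these genes are shown because the regulator's own gene carries them. The motif searched was CC, then 6 bases that are each A or T, then GG, on both strands, in the 250 bases before each RefSeq gene start (GRCm38.p6). It was found for 439 of 27025 genes (1.62%) and for 3 of the 39 actin genes with an entry (7.69%). In the lines below capitals mark the box; windows are on the strand of the gene, chr17:46556210-46556269 (minus, 82 to 73 bases before the start) and chr17:46556190-46556249 (minus, 62 to 53) for Srf, chr11:120348551-120348610 (minus, 90 to 81) for Actg1 and chr6:113377863-113377897 (plus, 250 to 241) for Arpc4.
Srf, farther box: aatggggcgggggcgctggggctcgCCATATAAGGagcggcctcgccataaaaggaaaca
Srf, nearer box: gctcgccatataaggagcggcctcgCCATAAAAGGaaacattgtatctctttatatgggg
Actg1: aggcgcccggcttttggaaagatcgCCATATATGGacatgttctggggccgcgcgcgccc
Arpc4: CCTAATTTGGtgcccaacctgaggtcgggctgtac
A match is a stretch of letters, and binding was not measured. Levels in megakaryocytes over HSPC on the log2 scale were 0.74 ± 0.51 for Srf, 0.43 ± 0.11 for Actg1 and 0.24 ± 0.021 for Arpc4, none of them 2-fold in all 4 libraries.

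Along the neutrophil stages, from granulocyte-monocyte progenitors or promyelocytes through dividing precursors, immature and maturing to mature neutrophils, 11 of the 43 genes had a higher mean CPM at each step. They were Actg1, Tmsb4x, Arpc1b, Arpc2, Wasf2, Diaph1, Cdc42, Capzb, Lcp1, Tpm4 and Msn. Tpm4 spanned the widest range, with means of 3.02, 5.96, 31.5, 206 and 354 CPM in that order. Tpm1 was the 1 gene lower at each step, at 18.8, 4.75, 2.25, 1.18 and 1.13 CPM, although the last pair of means differed by less than their spread. The other 31 had mixed courses: Flna, Gsn, Wdr1 and Pfn1 peaked in immature neutrophils and Actn1, Vasp, Capg and Arpc5 in maturing ones. Without the 18 abundant genes in the totals, Tpm4 and Msn still had a higher mean at each step and Tpm1 a lower one. In those totals 19 genes peaked in immature neutrophils, 12 of which had peaked elsewhere, and 14 in maturing neutrophils, 9 of which had peaked elsewhere. Courses and peaks were not counted over all genes, so these counts cannot be called particular to the actin genes. Counted per cell instead of as CPM, Tpm4 had 1.16 UMIs in mature neutrophils and 0.107 in dividing precursors. Lcp1 had 6.35 UMIs in mature neutrophils and 10.3 in dividing precursors, so the order of Lcp1 turned on this scale.

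**Figure D3:**
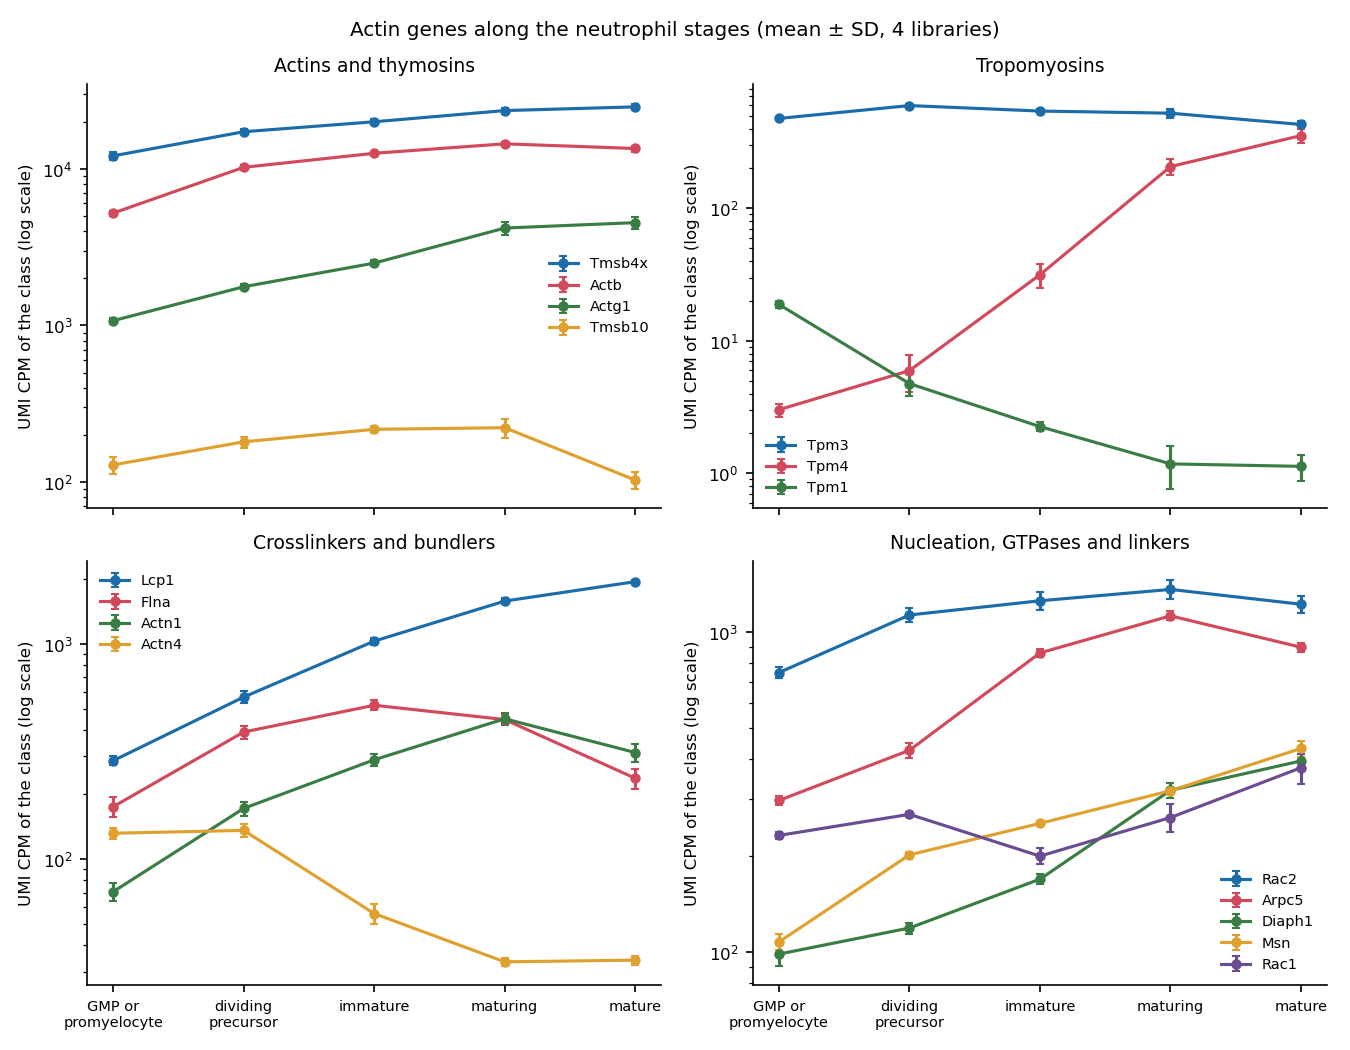
Mean CPM with SD over 4 libraries (log y axis) at 5 neutrophil stages (x axis) for actins and thymosins, tropomyosins, crosslinkers, and nucleation, GTPase and linker genes. Tpm4 climbs between 3.02 and 354 CPM while Tpm1 descends to 1.13 CPM, and Actn1 and Actn4 separate after the dividing stage.

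In the cluster that held most mature neutrophils of WT replicate 1, no gene of the set was 2-fold apart in all 4 libraries. Over the mature neutrophils of the same library outside this cluster and an interferon-led one, 0 of 40 actin genes were at least 2-fold higher and 0 at least 2-fold lower in all 4 libraries, beside 1.86% and 0.0% of 8066 genes. The median log2 ratio of the actin genes was -0.016 and that of all genes 0.20. Actb there was at 12313 and 10236 CPM in YAP1 heterozygote and 13360.4 and 13686 CPM in WT libraries, against 14202 and 12763 CPM in YAP1 heterozygote and 13932 and 13468 CPM in WT libraries for those other cells. The cluster was the lower one in 3 of 4 libraries, most so in YAP1 heterozygote replicate 2, where it held 44 cells. In YAP1 heterozygote replicate 1, where the cluster held 31 cells, single genes passed 2-fold, such as Flna (log2 ratio -1.27) and Coro1c (1.24). The smaller cluster, led by the interferon-induced genes Ifit1 and Ifit3, likewise had 0 actin genes higher and 0 lower, beside 14.4% and 0.0442% of 9041 genes, with a median of -0.13 against 0.20. It held 20 and 38 cells in YAP1 heterozygote and 44 and 38 cells in WT libraries.

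Lymphoid and monocytic classes used yet other genes of the set. Evl was highest in NK cells (253 ± 23.2 CPM) and T cells (216 ± 11.1 CPM), where it made up 51.6 ± 3.12% and 54.5 ± 2.17% of the Ena/VASP pair. Ezr reached 371 ± 32.5 CPM in B cells, above every library of NK cells, the next class (212 ± 46.5 CPM). NK cells also had a high Tpm4 level (372 ± 29.4 CPM), overlapping with that of mature neutrophils, and the highest Tpm3 level (605 ± 13.2 CPM). Nonclassical monocytes, the patrolling subset, led for Msn (900.3 ± 150.3 CPM), Rhoa (877 ± 90.4 CPM) and Coro1a (1729.5 ± 125 CPM), and monocytes for Rac1 (442 ± 1.26 CPM) and Cfl1 (1205 ± 33.0 CPM). Without the 18 abundant genes in the totals Msn and Rhoa were still highest in nonclassical monocytes, whereas Coro1a was highest in maturing, Rac1 in mature, and Cfl1 and Tpm3 in immature neutrophils. In B cell precursors Actn4 took 95.5 ± 1.28% of the α-actinin UMIs, and in B cells Capg took 89.3 ± 1.36% of the gelsolin pair, against 23.3 ± 1.47% in their precursors. Limk1, low everywhere, was highest in plasmacytoid dendritic cells (15.8 ± 4.29 CPM) and NK cells (15.6 ± 7.13 CPM), which overlapped.

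Between genotypes, none of the 43 genes passed the threshold in any class. edgeR's quasi-likelihood test on counts summed per library and class, with Benjamini-Hochberg adjustment over all genes of a class, called 0 of 793 gene-by-class tests of the actin genes over 19 classes, beside 67 of 168769 tests over all genes (0.0397%). At an unadjusted p under 0.05 there were 14 (1.77%), beside 4.72% over all genes. The smallest adjusted p of an actin gene in edgeR was 0.193, for Actg1 in basophils or mast cells. By direction, 426 of the 793 log2 fold changes were above 0 and 367 below, and 2 exceeded 1 in size, Tpm4 in macrophages and Srf in nonclassical monocytes (1.13, edgeR adjusted p = 0.999). DESeq2, run as an alternative, called 1 of these tests, Actg1 in basophils or mast cells. The count depended on WT replicate 2: without it edgeR called 18 of the tests, beside 1.98% over all genes, among them Arpc1b and Tmsb10 in erythroid progenitors (log2 fold changes -1.04 and -0.90), Tmsb10 in conventional dendritic cells (-0.78), Actn1 in nonclassical monocytes (-1.44) and Ezr in HSPC, monocytes and conventional dendritic cells (-0.54, -0.52 and -0.67). In the fit with all 4 libraries these genes missed the threshold. Without WT replicate 2 the lone WT library was replicate 1, which carried Ddx3y and stood apart in its mature neutrophils. In that fit genotype cannot be fully told apart from sex or from that library. With no filter on low counts Arpc1b and Tmsb10 were called in erythroid progenitors, and without YAP1 heterozygote replicate 2 Actn1 was called in nonclassical monocytes. Actn1 there was at 39.3 and 89.6 CPM in YAP1 heterozygote and 173 and 75.2 CPM in WT, highest in WT replicate 1. The 7 neutrophil genes named with Lcp1, all detected, summed to 7.34 and 10.0% of UMIs in YAP1 heterozygote nonclassical monocytes. In WT they summed to 17.6 and 8.06%, again highest in WT replicate 1. Their part in the Actn1 difference was not tested.

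In megakaryocytes 42 genes were tested, and edgeR called 0 of them (0.0% of 9687 genes). The edgeR log2 fold change was above 0 for 10 and below 0 for 32, with a median of -0.067, against -0.0029 over all genes, and the highest and lowest were 0.18 and -0.44. The 2 libraries of a genotype lay apart from those of the other for 13 genes, 3 higher and 10 lower in YAP1 heterozygote, beside 29.2% of all genes. Directions were not counted over all genes of this class. Other classes had splits as uneven, in either direction. In basophils or mast cells 7 actin genes were above 0 and 36 below, and in maturing neutrophils 35 were above and 7 below. In bulk sums of this kind, fewer or smaller cells of a kind within the class and less RNA per cell cannot be told apart.

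The 5 megakaryocyte genes with the smallest unadjusted p among those without overlap were Actn1, Tpm1, Wdr1, Gsn and Srf, all lower in YAP1 heterozygote libraries. Actn1 was at 42.9 ± 6.46 CPM in YAP1 heterozygote and 55.9 ± 6.95 CPM in WT megakaryocytes (SD, n = 2 each), which is -0.36 on the log2 scale (SE 0.19). Tpm1 was at 131 ± 8.55 CPM in YAP1 heterozygote and 159 ± 15.5 CPM in WT, a log2 difference of -0.27 (SE 0.14). That every YAP1 heterozygote library was below every WT library for these genes follows from the choice, and the gap did not pass the test. For Wdr1 the libraries had 121 and 125 CPM in YAP1 heterozygote and 150.3 and 144 CPM in WT (log2 fold change -0.24, SE 0.14), and Gsn, with means of 29.0 ± 0.406 CPM in YAP1 heterozygote and 37.6 ± 6.21 CPM in WT, differed by -0.37 (SE 0.21). Srf was at 15.4 ± 0.762 CPM in YAP1 heterozygote and 21.1 ± 1.70 CPM in WT, a log2 fold change of -0.44 (SE 0.25) from 25 and 32 UMIs in YAP1 heterozygote and 49 and 54 UMIs in WT megakaryocytes. The edgeR adjusted p was 1.00 for each of the 5, and over the alternatives it ran between 0.731 and 1.00. Without WT replicate 2 the log2 fold change was -0.20 for Actn1, -0.14 for Tpm1 and -0.16 for Gsn. Actn1 came to -0.22 without YAP1 heterozygote replicate 1. A single cell of WT replicate 2 held 30 of its 114 Gsn UMIs, and without the top cell of each library Gsn came to -0.21. Among the others, Diaph1 was at 289 ± 31.7 CPM in YAP1 heterozygote and 344 ± 10.1 CPM in WT (-0.24, and -0.13 and -0.36 without YAP1 heterozygote replicates 1 and 2) and Mrtfa at 16.6 ± 0.883 CPM in YAP1 heterozygote and 20.4 ± 0.154 CPM in WT (-0.28), also without overlap. The other genes without overlap were Was, Limk2 and Coro1c, lower, and Arpc1b, Arpc4 and Limk1, higher.

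The actins and the remaining tropomyosins overlapped between genotypes in megakaryocytes. Actb was at 5338 ± 491 CPM in YAP1 heterozygote and 5799 ± 356 CPM in WT (log2 fold change -0.11, SE 0.11), Actg1 at 1476 ± 62.7 CPM in YAP1 heterozygote and 1559 ± 136 CPM in WT (-0.067, SE 0.13) and Tpm3 at 473 ± 32.7 CPM in YAP1 heterozygote and 507 ± 37.4 CPM in WT (-0.084, SE 0.14). The Actg1 sign turned without WT replicate 2 (0.045). Tpm4 was at 96.1 ± 43.8 CPM in YAP1 heterozygote and 98.6 ± 60.2 CPM in WT (-0.024, SE 0.36), and here the replicate number went with a larger difference than the genotype. Replicate number went with sex-linked transcripts in both groups, so it cannot be told apart from sex. A single cell held 72 of 273 Tpm4 UMIs in YAP1 heterozygote replicate 2 and another 85 of 383 in WT replicate 2; without the top cell of each library the levels were 60.9 and 98.0 CPM in YAP1 heterozygote and 51.7 and 116 CPM in WT, so replicate 2 stayed higher in both. Platelet transcripts (Pf4, Ppbp, Gp9 and Gp1bb) summed to 0.734 and 0.957% of megakaryocyte UMIs in YAP1 heterozygote and 0.776 and 1.06% in WT; their part in these differences was not tested. Among paralog shares in megakaryocytes the widest gap between genotypes was that of Limk1, 55.3 and 57.5% in YAP1 heterozygote and 44.2 and 46.8% in WT, with an exact two-sided permutation p of 0.333, the smallest that 2 against 2 libraries allow. These shares rest on few UMIs. Limk1 had 21 and 23 UMIs in YAP1 heterozygote and 23 and 29 in WT, and Limk2 had 17 and 17 in YAP1 heterozygote and 29 and 33 in WT.

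**Figure D4:**
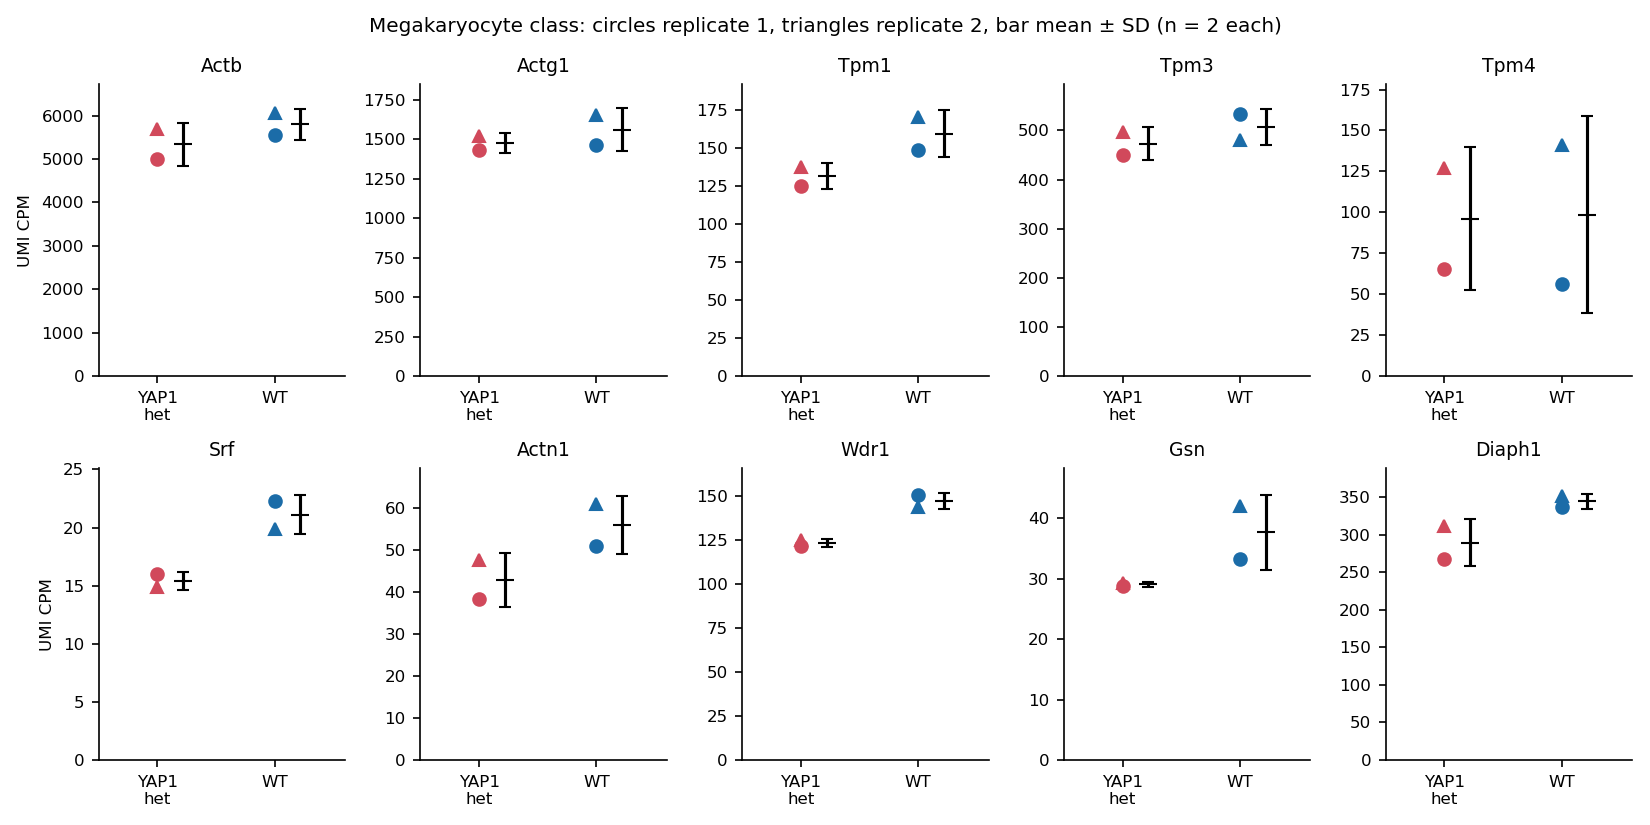
CPM of 10 genes in the megakaryocyte class (y axis from 0) by genotype, YAP1 heterozygote left and WT right; circles are replicate 1, triangles replicate 2, and black marks the mean ± SD of 2 libraries. Tpm1 and Srf show both YAP1 heterozygote libraries below both WT libraries, and Tpm4 shows both replicate 2 libraries above both replicate 1 libraries.

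In mature neutrophils 41 genes were tested, 0 were called by edgeR (0.0% of 8246 genes), 19 were higher and 22 lower. For 12 the genotypes did not overlap, 8 of them higher in YAP1 heterozygote, beside 32.0% of all genes. Actr3 had 618 and 638 CPM in YAP1 heterozygote and 763 and 722 CPM in WT mature neutrophils, -0.26 as a log2 fold change (SE 0.13; adjusted p = 0.995 by edgeR). Capg had 88.6 and 75.4 CPM in YAP1 heterozygote and 97.6 and 98.3 CPM in WT, a change of -0.28 (SE 0.15). Both YAP1 heterozygote libraries were the lower ones for these genes. Actr3, Capg, Tpm3, Ezr and Gsn were the 5 with the smallest unadjusted edgeR p among genes without overlap, so their separation follows from the choice. Tpm3 stood at 404 and 402 CPM in YAP1 heterozygote and 451 and 458 CPM in WT (-0.19) and Ezr at 153 and 133 CPM in YAP1 heterozygote and 166 and 157 CPM in WT (-0.19), again lower, while Gsn was the higher one of the 5, at 268 and 229 CPM in YAP1 heterozygote and 220.1 and 221 CPM in WT (0.16). Over the alternatives, with WT replicate 1 left out among them, the edgeR and DESeq2 adjusted p of these 5 genes lay between 0.575 and 1.00 and no sign turned. Without YAP1 heterozygote replicate 2 the log2 fold changes were -0.18 for Capg, -0.11 for Ezr and 0.25 for Gsn, and without YAP1 heterozygote replicate 1 that of Gsn was 0.068. The median log2 fold change of the actin genes was -0.0079, and -0.053 without WT replicate 1.

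Over the 19 classes, groups without overlap were 14.9% of the 793 tests with YAP1 heterozygote higher and 12.9% with it lower, beside 15.6% and 16.6% over all genes. Ezr, picked after its values were seen, had the most classes with YAP1 heterozygote lower. It was lower in 16 of 19 classes, without overlap in 11 of these, and called in none. In HSPC it had 70.7 and 59.8 CPM in YAP1 heterozygote and 94.3 and 83.9 CPM in WT, -0.47 as a log2 fold change (SE 0.14; adjusted p = 0.562 by edgeR), and in monocytes 85.8 and 83.9 CPM in YAP1 heterozygote and 122 and 98.5 CPM in WT (-0.37, edgeR adjusted p = 0.878). Both YAP1 heterozygote libraries were the lower ones in each. The monocyte value was -0.21 without WT replicate 1. The share of Msn in the pair was higher in YAP1 heterozygote without overlap in 9 of 19 classes, each with an exact permutation p of 0.333. This share is the complement of the Ezr share, so it is not a separate result. In the other families, shares lay apart without overlap in 2 to 8 of 19 classes. The level of Msn itself was higher without overlap in 4 classes and lower in 3. Tmsb4x was higher without overlap in 9 classes and lower in 2, Was in 8 and 3, Arpc1b in 8 and 1, while Lcp1 had no class without overlap. The classes of a library share that library, so they are not separate replicates.

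Outside these classes, the smallest p came from basophils or mast cells and the largest fold change from macrophages. Actg1 in basophils or mast cells was at 2522 and 2455 CPM in YAP1 heterozygote and 4096 and 3320.2 CPM in WT, with no overlap and -0.67 as a log2 fold change (SE 0.16; adjusted p = 0.193 by edgeR). Over 11 alternatives its adjusted p ranged between 0.000145 and 0.820, and it fell below 0.05 without the filter on low counts, with DESeq2 (0.0416) and without WT replicate 2 (0.000914). Tpm4 in macrophages was at 92.7 and 117 CPM in YAP1 heterozygote and 24.6 and 83.6 CPM in WT, 1.20 as a log2 fold change (SE 0.45, adjusted p = 0.430 by edgeR). WT macrophages held 162509 and 107600 UMIs of all genes in 65 and 49 cells, so the WT levels rest on few Tpm4 UMIs. WT replicate 1 was the lowest library, and the next WT library was close to the YAP1 heterozygote ones. The log2 fold change was 0.51 without WT replicate 1 and 2.14 without WT replicate 2, where it was called. In that class the neutrophil granule genes summed to 20.9 and 21.4% of UMIs in YAP1 heterozygote and 21.0 and 13.9% in WT. The part of these genes in the result was not tested. In 1 library a single cell gave 75.0% of the Tpm4 UMIs. Dropping the cell with most Tpm4 from every library gave a log2 fold change of 1.76 (adjusted p = 0.436 by edgeR). That was larger than the 1.20 with all cells and was not called.

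**Figure D5:**
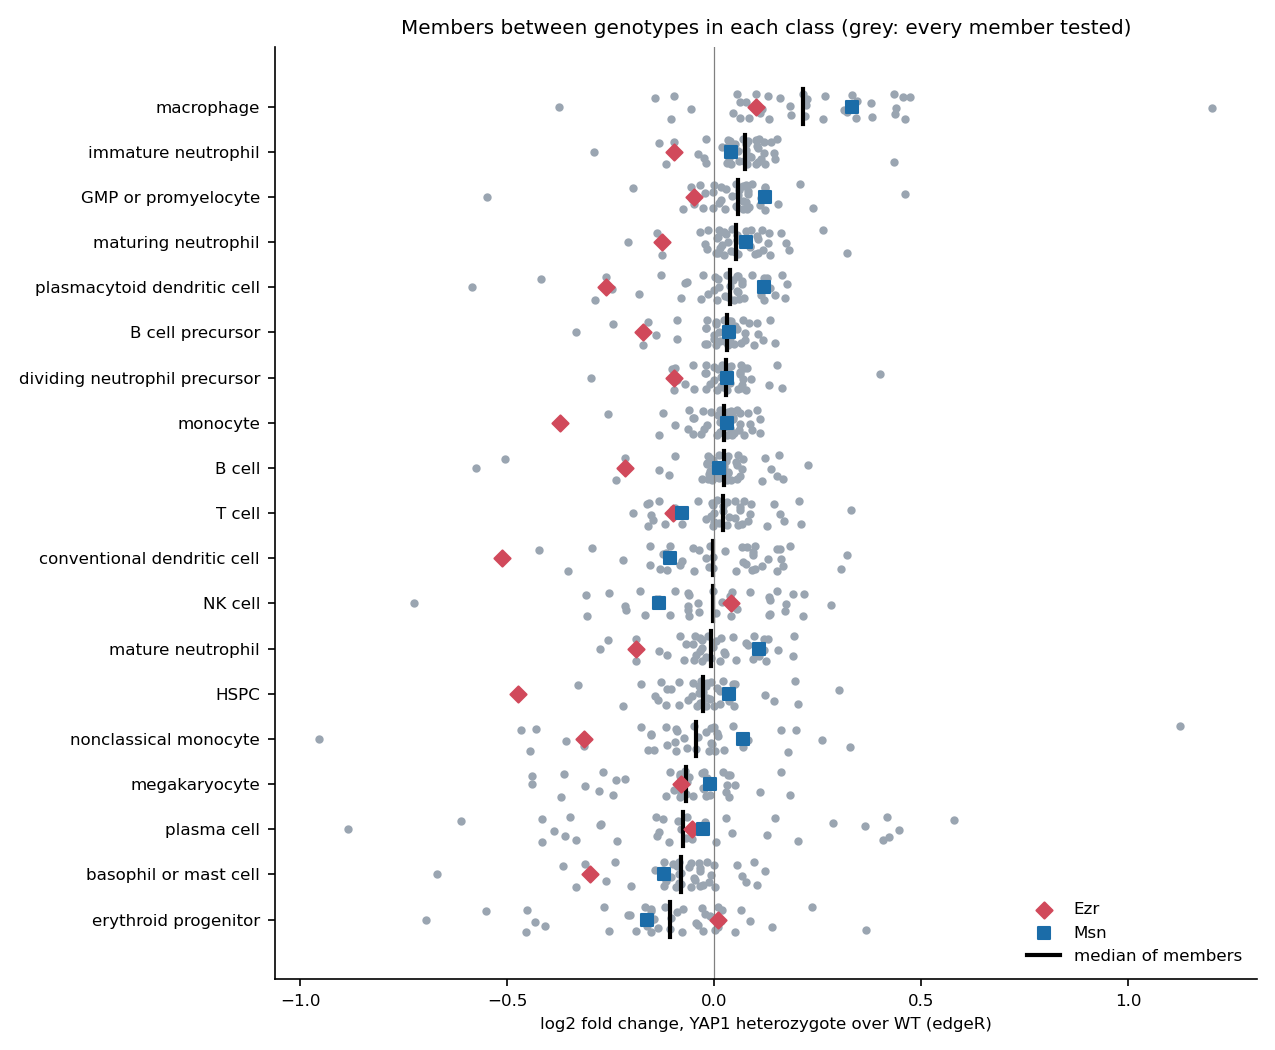
edgeR log2 fold change of every tested actin gene, YAP1 heterozygote over WT (x axis), in 19 classes (rows, ordered by the median of the genes); grey points are genes, red diamonds Ezr, blue squares Msn, and black bars the median. Medians lie between -0.11 in erythroid progenitors and 0.21 in macrophages, and Ezr lies left of 0 in 16 rows.

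The wider pathway was read from 2 lists, 63 other actin-binding and nucleating proteins and 26 targets of SRF and MRTF. Between genotypes edgeR called 0 of 895 and 0 of 291 gene-by-class tests in these lists, in either direction. In megakaryocytes over HSPC the counts at 2-fold in all 4 libraries were 7 higher and 6 lower of 54 and 4 higher and 2 lower of 18 measured genes, with median log2 ratios of 0.031 and 0.71. All genes had 3.51% higher and 6.19% lower there. In mature over dividing neutrophils they were 11 higher and 7 lower of 46 and 8 higher and 3 lower of 14, with medians of 0.13 and 1.51. All genes had 18.7% higher and 32.6% lower in that contrast. Without the 18 abundant genes in the totals the counts there became 9 higher and 12 lower of 48 and 7 higher and 3 lower of 14, with medians of -0.12 and 1.21, beside 14.6% higher and 39.5% lower of all genes, while in megakaryocytes over HSPC they were 7 higher and 6 lower of 54 and 4 higher and 2 lower of 18. The highest genes of the first list in megakaryocytes were talin (Tln1), which couples integrins to actin and is also on the other list, at 656 ± 89.6 CPM in YAP1 heterozygote and 664 ± 41.8 CPM in WT, and pleckstrin (Plek), the platelet kinase substrate, at 604 ± 18.9 CPM in YAP1 heterozygote and 634 ± 6.99 CPM in WT. Iqgap1, a scaffold for Rac1 and Cdc42, and Gmfg, a debranching factor, led in mature neutrophils, at 1162 ± 63.8 CPM in YAP1 heterozygote and 1094 ± 64.4 CPM in WT, and at 1192 ± 51.0 CPM in YAP1 heterozygote and 1072 ± 43.9 CPM in WT. None of these genotype differences passed edgeR's threshold.

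The immediate-early genes among the SRF targets, which are known to respond fast to stimuli, cell handling included, led their list in mature neutrophils. Fos had 4173 and 3122 CPM in YAP1 heterozygote and 1632 and 2273 CPM in WT mature neutrophils, 0.87 as a log2 fold change (SE 0.22; adjusted p = 0.391 by edgeR). Both YAP1 heterozygote libraries were the higher ones, and WT replicate 1, the library with the Acod1-led cluster, was the lowest. Junb had 3825 ± 381 CPM in YAP1 heterozygote and 3799.9 ± 249.5 CPM in WT mature neutrophils, and Egr1 613 ± 226 CPM in YAP1 heterozygote and 468 ± 44.7 CPM in WT megakaryocytes, where the genotypes overlapped.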

How the data were processed

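Single-cell RNA sequencing of sorted bone marrow cells gave 1 matrix per library, in which the authors deposited raw UMI counts per gene and cell barcode. Cell Ranger 5.0.0 wrote the matrices, per the file headers, whereas the submitters' processing notes name Cell Ranger 3.0.0, Seurat 4.3.0 and the builds GRCm38 and mm10. The genes and gene lists were chosen with earlier results of these data known, and 1 further list is not reported here.

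Barcodes with under 500 UMIs, under 200 genes or over 10% mitochondrial UMIs were dropped, and Scrublet, set to 0.8% doublets per 1000 cells, marked 3.76 to 4.75% of cells, which were removed. Cells were clustered in scanpy 1.11.5 (2000 variable genes, 30 principal components, 15 neighbours, Leiden resolution 1.0, 32 clusters) without the 43 genes. Clusters were named from marker lists with cell cycle genes left out of the scoring, a rule settled after the clusters were seen; those under 20 cells in a library, erythroblasts, group 2 innate lymphoid and endothelial or stromal cells among them, were not tested.

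Counts were summed per library and class. Genotypes were compared with edgeR 4.0.16 in R 4.3.3 (filterByExpr, TMM, quasi-likelihood test, 2 against 2 libraries, Benjamini-Hochberg adjusted p under 0.05), and with DESeq2 1.42.0 as an alternative. Scripts were tested on simulated data. Class contrasts used CPM with 0.5 added to each count and a mean of at least 5 CPM. The genes given by library were called ones, the 5 with the smallest p among groups without overlap in megakaryocytes and in mature neutrophils, the 5 largest ratios each way per contrast, and Actb, Actg1, the tropomyosins and Srf in megakaryocytes; Ezr, Msn, Was and others named beyond that rule were chosen after their values were seen. Intervals are exact, at 95%, and cover counting error only. Each library was left out in turn, and other settings are listed at the end.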

Additional observations from a re-analysis of the deposited data

Results flagged for a closer look

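Was and Gsn were picked because their genotype groups did not overlap, with opposite sign, in the 2 lineages. By that choice every YAP1 heterozygote library was below every WT library in megakaryocytes and above in mature neutrophils. Over all genes, groups did not overlap for 29.2% in megakaryocytes and 32.0% in mature neutrophils. The share of all genes that pass in both with opposite sign was not counted. The log2 fold change in megakaryocytes minus that in mature neutrophils was -0.34 for Was and -0.52 for Gsn. For Was it ran between -0.49 and -0.22 over the alternatives, the smallest in size without YAP1 heterozygote replicate 1. The Gsn gap was -0.37 without the top cell of each library and also without WT replicate 2, in which 1 megakaryocyte held 30 of 114 Gsn UMIs. The difference between the lineages was not tested, and in neither class did edgeR call either gene.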

How the results depend on the processing

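Among results that answer a comparison, 111 values under the alternatives moved by less than the spread between libraries, or by under 1.5 times for a count, and 18 moved further. Calls of actin genes between genotypes were 0 in the fit reported, 3 with no filter on low counts (1660 calls over all genes, against 67), 1 with DESeq2 (184 over all genes), and 0 to 18 with each library left out, the highest without WT replicate 2. The median log2 fold change ran between -0.14 and -0.011 in megakaryocytes and between -0.053 and 0.084 in mature neutrophils with each library left out. As means over cells of the share per cell, Rac2 was 75.0% of the Rac pair in mature neutrophils, Coro1a 71.2% of coronins and Tmsb4x 95.5% of thymosins in megakaryocytes, and Tmsb10 21.1% of thymosins in HSPC. Clustering with the actin genes left in gave 58.3% for Tpm3 and 78.3% for Rac2 in mature neutrophils. With all genes in the totals, 1 to 2 genes were lower in mature over dividing neutrophils with each library left out. Without the dominating genes, and with all 4 libraries, 3 genes were higher and 4 lower in that contrast. The all-gene split was then 14.6% higher and 39.5% lower, and 47.8% and 18.6% in megakaryocytes over mature neutrophils. In no case was the cause tested.

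Reversed signs concerned small differences. With each library left out, Actg1 in megakaryocytes ran between -0.17 and 0.045 and turned without WT replicate 2. Tpm4 in megakaryocytes ran between -0.61 and 0.84 and turned without that library and, at 0.37, without YAP1 heterozygote replicate 1. Actb in mature neutrophils ran between -0.079 and 0.030 and turned without WT replicate 2 (0.015) or YAP1 heterozygote replicate 2. With the replicate number as a block (replicate block), Tpm4 in megakaryocytes became 0.0066, 0 actin genes and 1153 of all genes were called, and no other sign turned. Deviations of libraries with one number correlated at -0.13 to 0.26 over the 19 classes (median 0.16, over 0.1 in 12). Libraries with one number also shared their sex-linked transcripts, so the block holds sex as well. Sex and any other pairing, which the labels do not give, cannot be told apart. Leaving out the top cell of each gene, an alternative chosen after seeing the data, called 0 actin genes. With 2 libraries a group and 73 to 121 megakaryocytes in each, genes such as Srf, Limk1 and Evl rest on few UMIs, and the size of difference that could be called for them was not tested. Fits without 1 library assume that the lone library of its group varies like the others.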
